A study of Mus musculus with 15 samples.

Results

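The enzymes that break fatty acids down by β-oxidation, with the transporters, ketone body enzymes and regulators around them, were followed through mouse intestinal organoids as 33 named genes out of the 43629 in the count table. They were picked by symbol, with earlier results of these data known, so the set is not independent evidence. By the textbook location of the protein, 21 belong to mitochondrial steps and 7 to peroxisomal ones, and the rest are 2 acyl-CoA thioesterases and 3 regulators or PPAR targets. All 33 passed the expression filter in each comparison.

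RNA sequencing covered 5 WT, 4 Apc and 4 P-Rspo3 libraries, all of C57B6/129 strain background and derived from crypts of the proximal small intestine. The study asked how the Ptprk-Rspo3 rearrangement alters the organoid transcriptome beside the loss of Apc. WT comprised 4 APC flox/flox lines (numbered 1, 2, 5 and 6) and 1 dox-naive culture (NAIVE), all grown in ENR medium, which holds EGF, Noggin and R-spondin. Apc comprised the lines of the same numbers as Apc delta/delta cultures in EN medium, which lacks R-spondin. P-Rspo3 comprised 4 cultures in which doxycycline-induced Cas9 from a transgene had inverted the segment between Ptprk and Rspo3. Their titles, EN15d, EN4d, EN_M and EN_F, are shortened here to 15d, 4d, M and F, and do not spell out what these endings mean. These cultures were polyclonal, selected by growth without RSPO1, and also kept in EN. Genotype and medium therefore cannot be told apart in either comparison with WT, whereas Apc and P-Rspo3 shared the medium. Those 2 groups came from different lines, however. Between them genotype cannot be told apart from line, nor from the doxycycline, Cas9 and selection used for P-Rspo3. The NAIVE library is the only one in WT from the transgenic animals.

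Total counts ran from 28902729 to 35528495 per library. The targeted genes gave a check of the labels. Rspo3 had 0 to 1 counts in each WT library and 539 to 1079 in each P-Rspo3 library. Apc, whose transcript can still be counted after the deletion of part of it, had a TMM-normalized CPM of 254 to 277 in Apc libraries and 143 to 202 in WT, so its level is no check of the deletion. Organoid epithelium was marked by Epcam, Krt8, Krt18 and Cdh1, with a summed FPKM of at least 1021 in every library, and the fibroblast, immune and endothelial markers Col1a1, Col1a2, Pdgfra, Dcn, Ptprc, Cd3e and Pecam1 summed to at most 0.609. Values given as CPM are counts scaled to library size by TMM. They serve comparisons of 1 gene between libraries, and FPKM, which is per length, serves comparisons between genes and sums over genes.

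Long-chain fatty acids enter the mitochondrial matrix as carnitine esters, through carnitine palmitoyltransferase on the outer and the inner membrane and a carrier between them. In the matrix a repeated cycle of dehydrogenation, hydration, a further dehydrogenation and thiolysis shortens the chain, and electrons reach the respiratory chain through electron transfer flavoprotein. Peroxisomes run a parallel cycle on very long, branched and dicarboxylic chains, in which an oxidase makes hydrogen peroxide that catalase removes. The surplus acetyl-CoA of the mitochondrion can become ketone bodies, and much of the pathway is under the nuclear receptor PPARα, which binds DNA with RXR. In the small intestine many of these genes are known from absorptive enterocytes.

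The short stretches below are shown because most members were lower in Apc and 1 pair shares its start region. Hadha (chr5:30118304-30155162, minus strand) and Hadhb (chr5:30155248-30184593, plus strand), in GRCm38 coordinates from GENCODE M21, encode the α and β subunits of the mitochondrial trifunctional protein and lie head to head. Only 85 bases separate their annotated starts, and 69.4% of these bases are G or C. They are given on the plus strand from the RefSeq GRCm38.p6 promoter table, in lower case.
Between Hadha and Hadhb, chr5:30155163-30155247: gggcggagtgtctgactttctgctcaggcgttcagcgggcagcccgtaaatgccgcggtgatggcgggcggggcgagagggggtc

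PPARα with RXR binds a direct repeat of AGGTCA spaced by 1 base, AGGTCANAGGTCA. Promoters of 27 of the 33 members and of 63 of the 81 other pathway genes were in the RefSeq table, each from 250 bases before the start to 50 after it, and Crat, Acaa2, Decr1, Acat1, Hsd17b4 and Angptl4 were not. Both strands were searched. A match with at most 2 of the 12 fixed bases changed occurred in 5 member promoters (18.5%), in 5 promoters of other pathway genes (7.94%) and in 1190 of all 27025 genes (4.40%). No member had a match with at most 1 changed base. The 5 members were Acox2, Cat, Echs1, Etfa and Slc25a20. In Acox2 and Slc25a20 the match began 10 and 7 bases into the transcript. The other 3 matches lay before the start and are printed with their surroundings, 5′ to 3′ along the gene, with the 13 matched bases in capitals.
Cat, chr2:103485322-103485381, minus strand: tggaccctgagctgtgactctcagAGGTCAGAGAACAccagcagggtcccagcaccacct
Echs1, chr7:140116469-140116528, minus strand: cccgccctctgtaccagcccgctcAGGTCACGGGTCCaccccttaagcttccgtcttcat
Etfa, chr9:55512285-55512344, minus strand: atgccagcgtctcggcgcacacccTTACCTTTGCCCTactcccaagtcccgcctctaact
In Cat and Echs1 the repeat ran along the gene and in Etfa it lay on the other strand. Such a match describes the letters and does not show that the receptor binds there.

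Loss of Apc went with lower RNA of nearly the whole group. Against WT, 23 of the 33 members were called lower and 1, Pdk4, was called higher, by edgeR's quasi-likelihood test with the adjusted p below 0.05 and a log2 fold change of more than 1 in size. Of all 16749 genes tested, 14.1% were called lower and 12.2% higher. Those calls were 2364 lower and 2048 higher, and with limma on log2(FPKM + 1) they were 1132 lower and 1418 higher, where 16 members were called lower. On the adjusted p alone 31 members were lower, beside 29.0% of all genes. The median log2 fold change of the members was -1.34, beside 0.0006 over all genes. In 31 members every Apc library lay below every WT library, which held for 25.0% of the genes tested. Angptl4 was the member with no call on either rule.

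**Figure D1:**
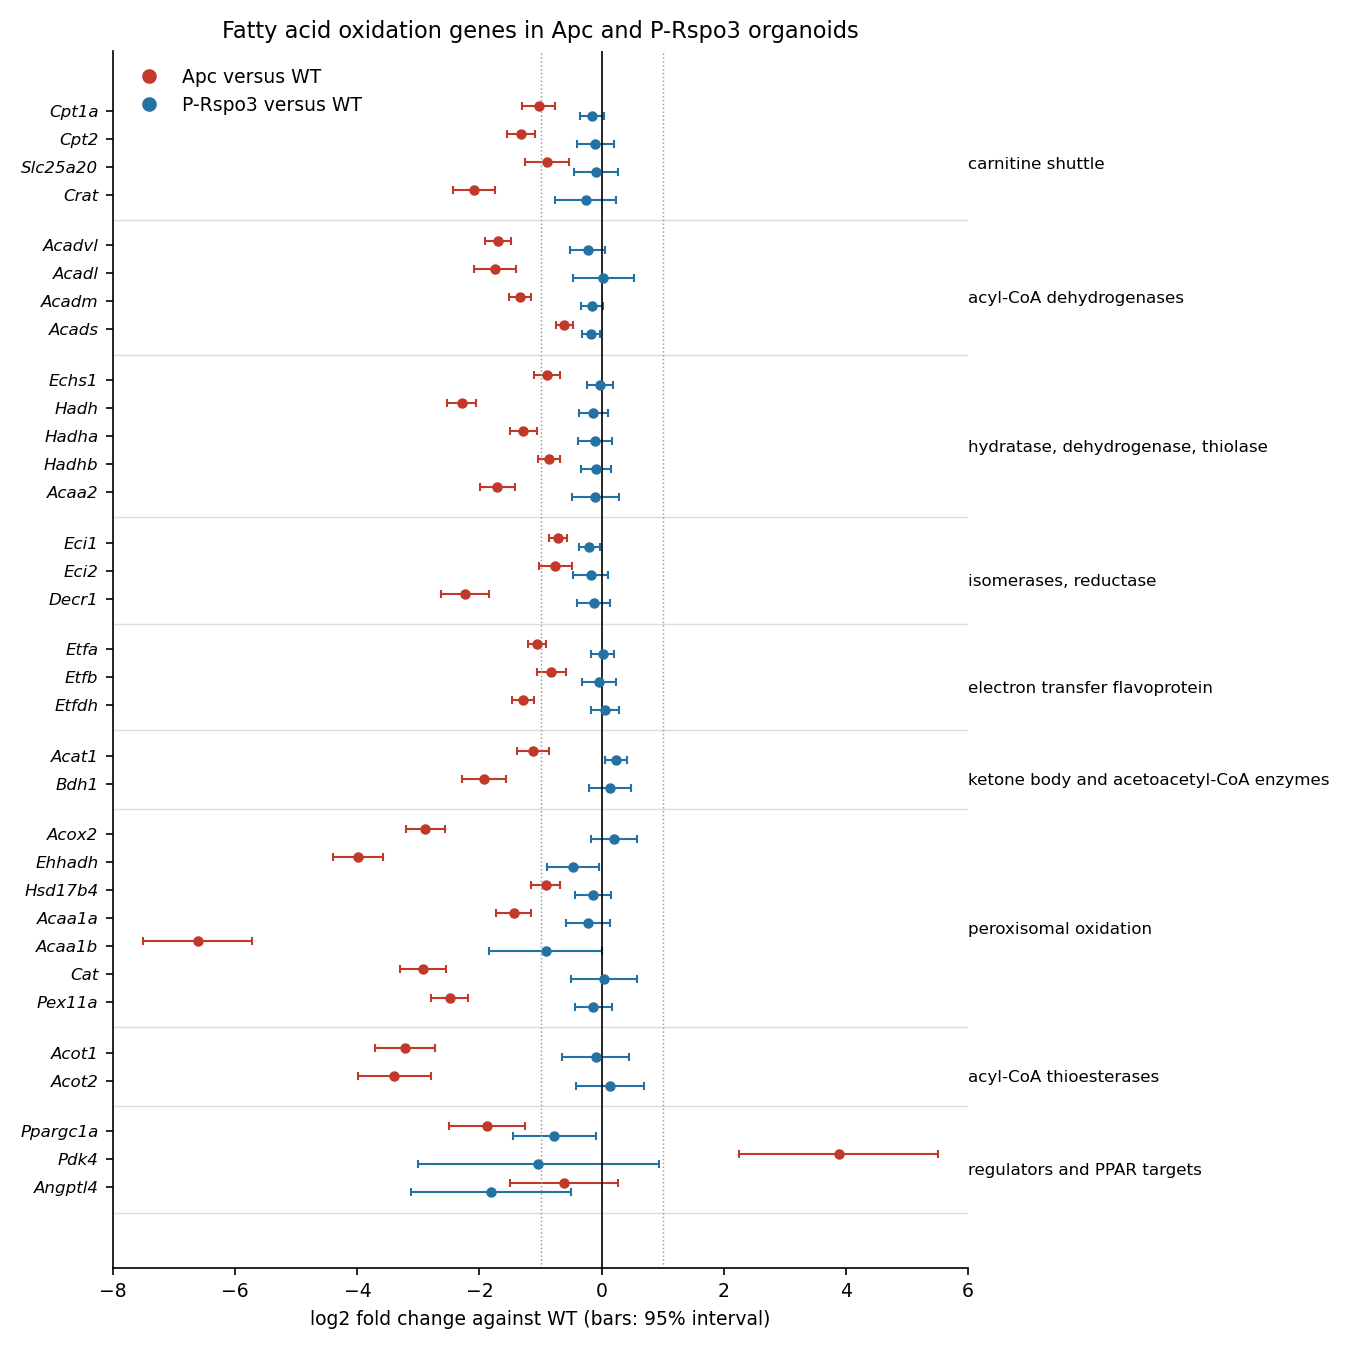
Log2 fold change against WT (x axis) of the 33 members grouped by step (y axis), for Apc (red) and P-Rspo3 (blue); points are edgeR estimates, bars 95% intervals and dotted lines a log2 change of 1 either way. The Apc estimates lie left of 0 for 32 members and at 3.88 for Pdk4, and 6 of the P-Rspo3 bars leave out 0, the widest being those of the sparse Pdk4 and of Angptl4.

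In the carnitine shuttle all 4 members were lower in Apc on the adjusted p and 3 were called. Cpt1a, the outer membrane carnitine palmitoyltransferase that controls entry, stood at 183, 185, 196, 160.4 and 185 CPM in the WT libraries (1, 2, 5, 6 and NAIVE, the order kept throughout). Its Apc libraries (1, 2, 5 and 6) held 70.2, 84.1, 110.2 and 95.1 CPM, and P-Rspo3 (15d, 4d, M and F) held 139, 167, 165 and 177 CPM. Each Apc library was below all others, and the log2 fold change against WT was -1.03 ± 0.12 (SE; edgeR adjusted p = 3.41e-05). This is the closest call of the set, since it was lost without Apc replicate 1 (-0.92) or Apc replicate 2 (-0.997). Crat, carnitine acetyltransferase, which buffers acetyl-CoA, fell most of the shuttle, from 96.5, 96.9, 125, 71.2 and 115 CPM in WT to 21.8, 26.7, 24.3 and 23.4 CPM in Apc. Its log2 fold change was -2.08 ± 0.16 (edgeR adjusted p = 1.25e-06), and P-Rspo3 spread widely over 57.1, 79.1, 73.9 and 126 CPM. Cpt2, the inner membrane transferase, had 163 ± 21.2 CPM in WT (SD, n = 5) and 65.7 ± 4.52 in Apc (n = 4), a log2 change of -1.32. Slc25a20, the carnitine-acylcarnitine carrier, went from 47.2 ± 8.21 to 25.6 ± 4.76 CPM and passed on the adjusted p but not on size (log2 change -0.90, edgeR adjusted p = 6.99e-04).

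The 4 acyl-CoA dehydrogenases, which open each turn of the mitochondrial cycle and differ in the chain length they take, were all lower in Apc. The fall was smallest for the enzyme of the shortest chains. Acadvl (very long chains) changed by -1.70 and Acadl (long chains) by -1.74 on the log2 scale, Acadm (medium chains) by -1.34, and Acads (short chains) by -0.61. The 95% intervals of Acadvl (-1.91 to -1.48) and Acadl (-2.08 to -1.40) overlapped, and that of Acads (-0.75 to -0.48) lay apart from the other 3. Acads still had no library in common, at 113 ± 4.56 CPM in WT (SD, n = 5) against 74.3 ± 4.34 in Apc (n = 4). In WT the level per length was highest for Acadl at 118 ± 24.5 FPKM, and Acadvl was next by mean at 73.997 ± 8.72. Acadvl overlapped Acadm (60.7 ± 4.79), and Acadm overlapped Acads (50.9 ± 4.06).

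For the later steps of the mitochondrial cycle the falls were uneven. Hadh, the hydroxyacyl-CoA dehydrogenase of short and medium chains, was the most abundant member of all in WT at 298 ± 21.5 FPKM, with no WT library as low as the highest of the next, Hadha (202 ± 20.6 FPKM). With Decr1 and Crat it had the largest estimated falls of the 21 mitochondrial members. Neither the order of these 3 nor their gap to Bdh1 (-1.93), the next by estimate, was resolved. Its WT libraries held 713, 666, 805, 635 and 717 CPM and its Apc libraries 133, 153, 166 and 131 CPM, a log2 change of -2.29 ± 0.11 (4.89-fold lower, edgeR adjusted p = 4.99e-08). P-Rspo3, at 554, 646, 624 and 745 CPM, overlapped WT and stood clear of Apc. Acaa2, the medium-chain thiolase, changed by -1.71, and Echs1, the short-chain enoyl-CoA hydratase, by -0.90 without passing on size.

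The head-to-head pair Hadha and Hadhb fell in all 4 Apc libraries. Hadha went from 431 ± 50.9 CPM (SD, n = 5) to 179 ± 10.9 (n = 4), log2 change -1.28 (95% interval -1.50 to -1.06), and was called. Hadhb went from 117 ± 10.4 to 65.1 ± 3.72 CPM, log2 change -0.86 (-1.03 to -0.68), and passed on the adjusted p alone. The 2 intervals lay next to each other without overlap, and the difference between the subunits was not tested. In WT the subunits were closer in level on FPKM (202 ± 20.6 and 160.2 ± 14.2) than on CPM. The reason for that gap was not tested, and the log2 changes of both rest on the counts.

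Chains with double bonds need extra enzymes, and these split. Decr1, the mitochondrial 2,4-dienoyl-CoA reductase, fell from 125, 103, 121, 86.3 and 112 CPM in WT to 17.8, 21.5, 31.6 and 22.9 CPM in Apc (log2 change -2.24 ± 0.17, edgeR adjusted p = 1.65e-06). P-Rspo3 held 84.5, 99.8, 111 and 104 CPM, with only 15d under the WT range. Eci1 and Eci2, the enoyl-CoA isomerases, changed by -0.71 and -0.76, and neither passed on size. The electron acceptors Etfa and Etfb, the subunits of electron transfer flavoprotein, changed by -1.06 and -0.82, and Etfdh, which hands the electrons to ubiquinone, by -1.29. Etfa and Etfdh were called and Etfb passed on the adjusted p.

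Both ketone body members were called lower in Apc. Bdh1, which interconverts acetoacetate and β-hydroxybutyrate, held 265, 230.5, 220.4, 203 and 310.3 CPM in WT, 86.4, 57.6, 61.3 and 55.98 in Apc and 205, 283, 315 and 279 in P-Rspo3. Apc lay apart from both other groups, which overlapped, and the log2 change against WT was -1.93 ± 0.16 (edgeR adjusted p = 3.00e-06). Acat1, the mitochondrial acetoacetyl-CoA thiolase, changed by -1.12. In P-Rspo3 Acat1 stood at 146 ± 9.42 CPM (n = 4) against 124 ± 9.21 in WT (n = 5), and this small difference (log2 0.24, 95% interval 0.06 to 0.41) missed the threshold after adjustment (edgeR adjusted p = 0.235).

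The peroxisomal members fell further at the median than the mitochondrial ones, though the ranges overlapped. All 7 were lower in Apc on the adjusted p and 6 were called, with a median log2 change of -2.88, while the 21 mitochondrial members, of which 14 were called and 21 passed on the adjusted p, had a median of -1.28. Acaa1b, a gene for peroxisomal 3-ketoacyl-CoA thiolase, was the extreme. It held 50.02, 74.6, 103, 33.1 and 88.5 CPM in WT and 0.734, 0.538, 0.677 and 0.893 CPM in Apc, 98.1-fold lower (log2 change -6.62 ± 0.40, edgeR adjusted p = 2.84e-07), from 19 to 37 counts in each Apc library. P-Rspo3 held 20.4, 23.2, 32.5 and 71.9 CPM, overlapping WT through replicate F.

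Its paralog Acaa1a changed far less, from 113 ± 18.4 CPM (SD, n = 5) to 42.03 ± 4.29 (n = 4), a log2 change of -1.44 (95% interval -1.73 to -1.15 against -7.51 to -5.72 for Acaa1b). In WT, Acaa1a had 59.8 ± 7.09 FPKM and Acaa1b 34.4 ± 13.4. In Apc they had 27.3 ± 3.83 and 0.422 ± 0.195. The genes lie on chromosome 9 (chr9:119148023-119157093, minus strand, and chr9:119339676-119350299, plus strand), 182582 bases apart. Their longest coding transcripts align over 1428 bases with 96.6% identity, and 35.5% of the 50-base stretches of Acaa1b occur unchanged in Acaa1a. How reads that match both were counted is not given in the sources used here, so the level of each is uncertain.

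Ehhadh, the bifunctional hydratase and dehydrogenase of the peroxisome, held 209.5, 230.3, 317, 180.1 and 229.5 CPM in WT and 13.7, 16.2, 17.2 and 12.2 in Apc, 15.9-fold lower (log2 -3.99 ± 0.19, edgeR adjusted p = 4.99e-08). In P-Rspo3 it held 135, 156, 146 and 235 CPM, of which 3 were below the WT range and F was inside it. Hsd17b4, the D-specific enzyme for the same steps, changed by only -0.92 (95% interval -1.15 to -0.68). The 2 bifunctional enzymes had nearly equal levels per length in WT, 60.4 ± 11.7 and 58.7 ± 6.50 FPKM, and in Apc 4.65 ± 0.730 and 38.6 ± 3.39 FPKM.

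Acox2, the oxidase of branched chains and bile acid intermediates, held 74.7, 73.7, 58.4, 56.8 and 73.5 CPM in WT, 7.60, 9.62, 8.54 and 11.1 in Apc and 62.9, 78.3, 60.9 and 106 in P-Rspo3. The Apc group was lower by 7.39-fold than WT (log2 -2.88 ± 0.14, edgeR adjusted p = 6.53e-08). Cat, catalase, was the most abundant peroxisomal member in WT, at 187 ± 42.1 FPKM, a level that overlapped those of Hadha and Etfa. Its libraries held 561, 523, 590.1, 522 and 855 CPM in WT and 76.9, 72.3, 93.2 and 82.3 in Apc, a log2 change of -2.92 ± 0.17 (edgeR adjusted p = 1.90e-07). The NAIVE library was the highest of WT, and in P-Rspo3, at 430.3, 624, 481 and 965 CPM, replicate F was higher still. Pex11a, which takes part in peroxisome division and proliferation, held 41.3, 43.3, 51.2, 31.3 and 45.7 CPM in WT, 7.52, 7.53, 7.84 and 7.72 in Apc and 34.2, 37.5, 37.9 and 44.6 in P-Rspo3. The 4 Apc values lay close together, far from the other groups, and the log2 change was -2.49 ± 0.14 (edgeR adjusted p = 1.50e-07).

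**Figure D2:**
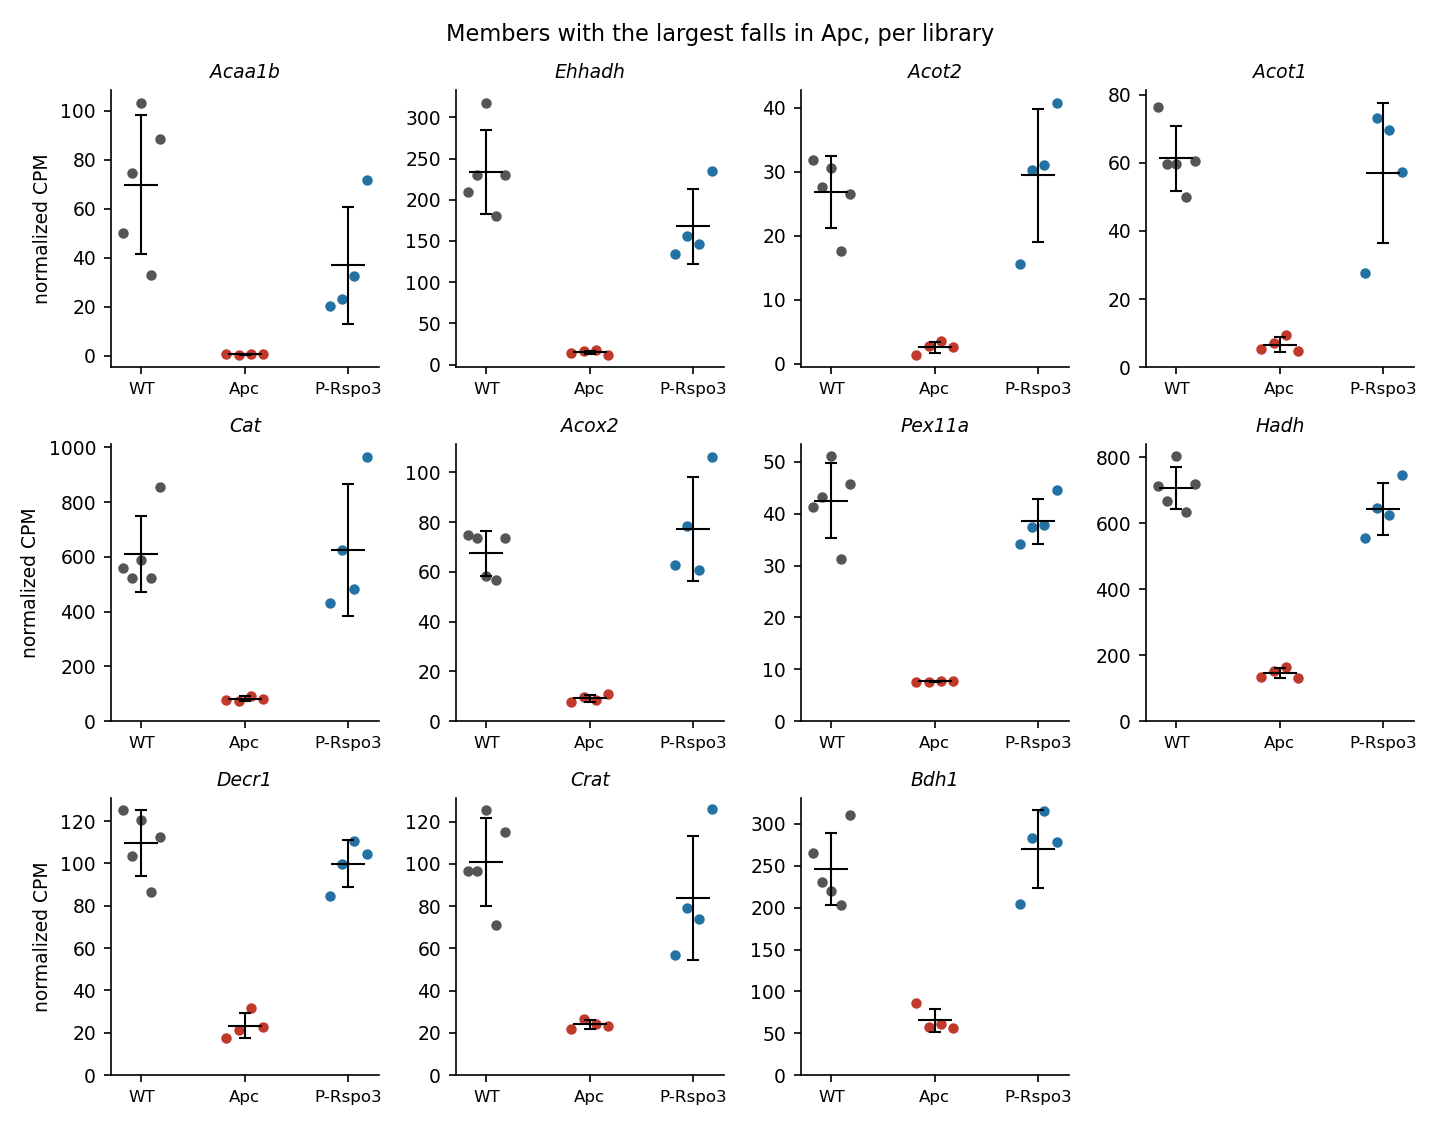
Normalized CPM per library (points; y axis from 0, scaled per gene) in WT (n = 5), Apc (n = 4) and P-Rspo3 (n = 4) for the 11 members with the largest falls in Apc; black bars are mean ± SD. In all 11 the Apc points lie below every WT and P-Rspo3 point, and in Acaa1b they lie between 0.538 and 0.893 CPM.

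The thioesterases Acot1 (cytosolic) and Acot2 (mitochondrial) release free fatty acids from acyl-CoA and were counted apart from the 21 mitochondrial members. They are neighbours on chromosome 12 (Acot2 at chr12:83987861-83993873 and Acot1 at chr12:84009490-84018371, plus strand). Acot1 held 76.4, 59.7, 59.7, 50.03 and 60.6 CPM in WT and 5.29, 7.02, 9.53 and 4.61 in Apc (log2 -3.22 ± 0.22, edgeR adjusted p = 6.42e-07). Acot2 held 31.8, 27.6, 30.6, 17.6 and 26.6 CPM in WT and 1.42, 2.77, 3.52 and 2.58 in Apc (log2 -3.39 ± 0.27, edgeR adjusted p = 1.92e-06). The falls, of 9.35-fold and 10.5-fold, did not differ beyond their intervals. Their longest coding transcripts are 94.3% identical over 1330 aligned bases, so here too reads may be shared. In P-Rspo3, Acot1 held 27.8, 73.1, 69.7 and 57.3 CPM and Acot2 15.6, 30.3, 31.1 and 40.7, with 15d lowest in both.

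Summed per library, the 21 mitochondrial members came to 2089 ± 188 FPKM in WT (SD, n = 5), 1015 ± 46.5 in Apc and 1987 ± 210.4 in P-Rspo3 (n = 4 each). The 7 peroxisomal members came to 452 ± 63.5, 109.9 ± 11.2 and 417 ± 109 FPKM. The peroxisomal share of both sums was therefore 15.7 to 19.5% in WT, 9.01 to 10.3% in Apc and 14.3 to 21.6% in P-Rspo3. Apc libraries lay below all others in both sums and in the share. FPKM are not scaled by TMM, and on log2(FPKM + 1) the median change of all genes was 0.167 in Apc versus WT. The sums therefore do not give the size of the fall on the TMM scale. Without Cat, which makes up much of the peroxisomal sum, the share was 9.92 to 12.9% in WT and 6.69 to 7.69% in Apc, still without overlap.

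**Figure D3:**
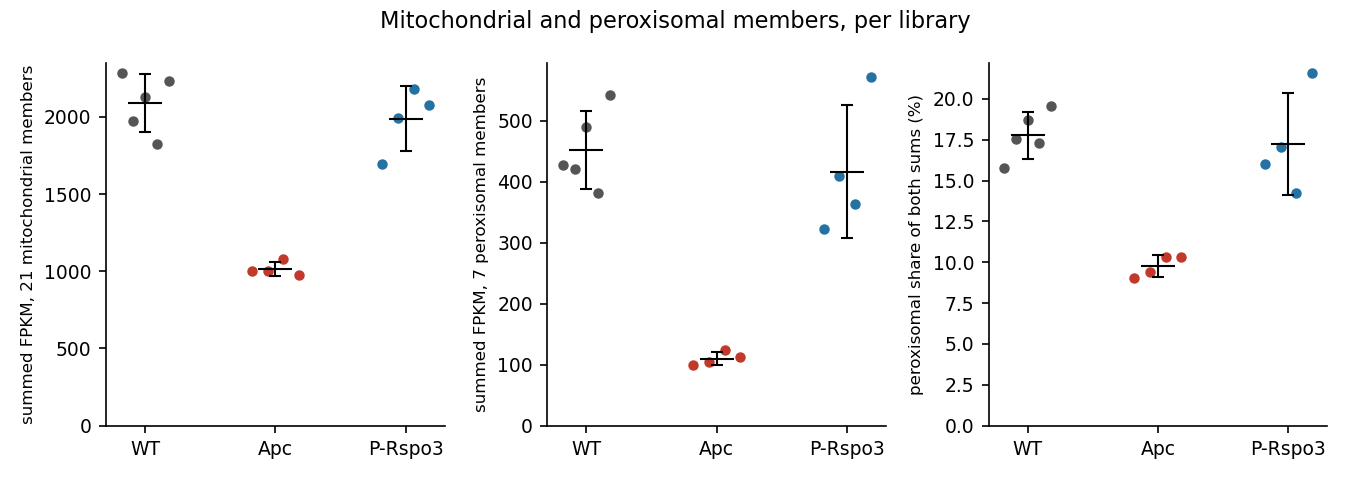
Summed FPKM of the 21 mitochondrial members (left), of the 7 peroxisomal members (middle) and the peroxisomal percent of both sums (right), per library (points) with mean ± SD (black) in WT (n = 5), Apc (n = 4) and P-Rspo3 (n = 4). All 4 Apc points lie below the other groups in each panel, at 9.01 to 10.3% in the right one.

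Pdk4, pyruvate dehydrogenase kinase 4, which spares pyruvate when fat is burnt and is itself a PPAR target, went the other way. It was the least abundant member per length in WT, at 0.156 FPKM, with 8 to 26 counts in each WT library, 62 to 862 in Apc and 0 to 27 in P-Rspo3. WT held 0.574, 0.436, 0.973, 0.237 and 0.388 CPM, Apc 2.43, 1.75, 5.97 and 20.8 CPM and P-Rspo3 0.0618, 0, 0.883 and 0.0365 CPM. All 4 Apc libraries exceeded every other library, replicate 6 by far the most, and the log2 change against WT was 3.88 ± 0.74 (edgeR adjusted p = 9.43e-04). Without Apc replicate 6 it was 2.70 (edgeR adjusted p = 0.00106).

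Ppargc1a, the coactivator PGC-1α of mitochondrial biogenesis and oxidation genes, held 27.9, 45.1, 57.1, 27.3 and 20.996 CPM in WT and 8.28, 11.7, 9.66 and 9.55 in Apc (log2 -1.88 ± 0.28, edgeR adjusted p = 1.78e-04). In P-Rspo3 it held 23.9, 16.9, 13.9 and 28.5 CPM, of which M and 4d lay under the WT range. Angptl4, a secreted inhibitor of lipoprotein lipase and a PPAR target, held 5.96, 8.64, 12.8, 6.91 and 7.82 CPM in WT, 4.10, 2.01, 5.65 and 10.4 in Apc and 0.247, 1.48, 3.60 and 4.27 in P-Rspo3. Apc overlapped WT, with a log2 difference of -0.61 (95% interval -1.50 to 0.28, edgeR adjusted p = 0.216). Without Apc replicate 6 that difference was -1.11 and passed both rules.

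**Figure D4:**
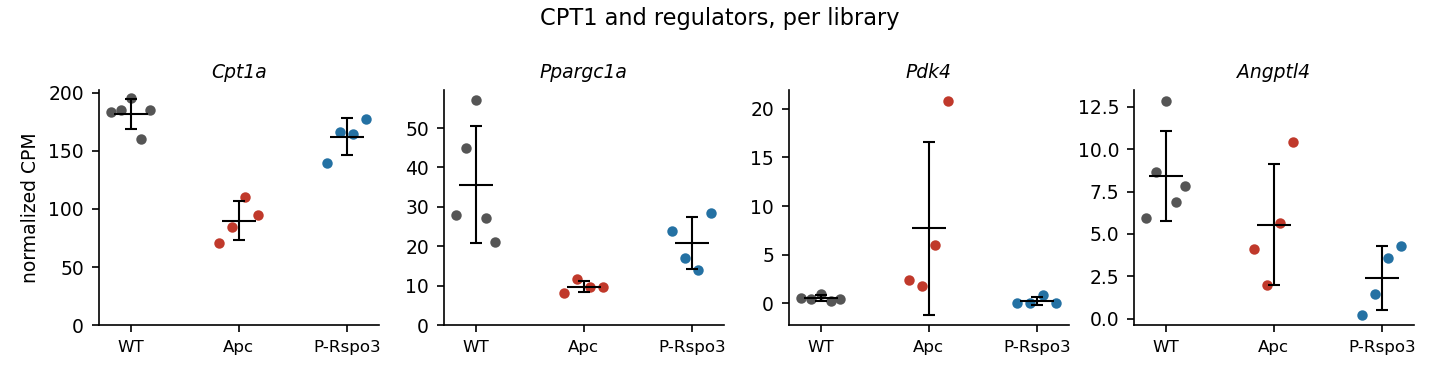
Normalized CPM per library (points) of Cpt1a, Ppargc1a, Pdk4 and Angptl4 in WT (n = 5), Apc (n = 4) and P-Rspo3 (n = 4), with mean ± SD in black. Pdk4 is above all other libraries in the 4 Apc libraries, from 1.75 to 20.8 CPM, and Angptl4 runs from 0.247 to 4.27 CPM in P-Rspo3, below WT and overlapping Apc.

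P-Rspo3 organoids showed no call among the members against WT. No member of the 33 passed, and the smallest adjusted p was 0.224. At an unadjusted p under 0.05 there were 6 members, where 13.5% of all genes passed. DESeq2 also called no member, while it called 55 genes higher and 173 lower, 1.43% of all. Of all 15992 genes tested, 0.00625% were called, which is 1 gene, Rspo3 itself. That count over all genes depended on the fit, at 11 higher and 63 lower with all 3 groups in 1 fit and 166 higher and 100 lower without WT replicate NAIVE, and no member was called in either. The median log2 difference of the members was -0.13, beside 0.0041 over all genes, and 25 members were lower in sign and 8 higher. For 29 members the 95% interval lay within a 2-fold change either way. The intervals of Acaa1b (-1.84 to 0.01), Ppargc1a (-1.45 to -0.09), Pdk4 (-3.01 to 0.93) and Angptl4 (-3.12 to -0.50) reached beyond it.

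Angptl4 and Eci1 were the members in which every P-Rspo3 library was below every WT library, which held for 2.49% of all genes tested. The Angptl4 difference was -1.81 ± 0.59 on the log2 scale (edgeR adjusted p = 0.224), and that of Eci1 was -0.20 (95% interval -0.38 to -0.02, edgeR adjusted p = 0.310). Ehhadh differed by -0.47 (-0.90 to -0.04) and Hadh by -0.14 (-0.37 to 0.10). The 21 mitochondrial members ranged from -0.26 to 0.24 and the 7 peroxisomal ones from -0.91 to 0.20, with medians of -0.10 and -0.14.

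Set against P-Rspo3, in the same medium but of other lines, Apc again had most members lower. Of the 33, 22 were called lower and Pdk4 was called higher, where 13.3% of the 16456 genes tested were called lower and 13.4% higher. With limma on log2(FPKM + 1) the calls over all genes went from 2183 lower and 2209 higher to 1124 lower and 1430 higher, and 16 members were called lower. On the adjusted p alone 31 were lower, beside 27.7% of genes. This comparison shares its Apc libraries with that against WT and is not independent of it. The mitochondrial members had a median log2 difference of -1.17 with 13 called, and the peroxisomal members -2.95 with 6 called. Acaa1b differed by -5.69 ± 0.48, Ehhadh by -3.50 ± 0.20 and Acox2 by -3.07 ± 0.20 (edgeR adjusted p = 1.05e-05, 1.34e-06 and 2.60e-06). Cpt1a differed by -0.85 (edgeR adjusted p = 6.15e-04), short of the size asked for. Pdk4 was higher by 4.93 ± 1.19 (edgeR adjusted p = 0.00602). The Pdk4 value was 3.75 without Apc replicate 6 and 7.69 without P-Rspo3 replicate M, the latter against libraries of 0 to 2 counts and so no measure of its size. Ppargc1a, at -1.09 (edgeR adjusted p = 0.00248), was no longer called without P-Rspo3 replicate F. Angptl4 was 1.21 (95% interval -0.44 to 2.85).

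Within groups the members varied by library. Over the 33 members the coefficient of variation of CPM had a median of 14.0% in WT, 10.2% in Apc and 16.5% in P-Rspo3. In P-Rspo3, replicate 15d held the lowest value of the group in 29 of 33 members and F the highest in 21. In WT, line 6 was lowest in 26 and line 5 highest in 16. The summed FPKM of 8 enterocyte markers (Alpi, Vil1, Fabp2, Sis, Apoa1, Lct, Mttp and Anpep) was likewise lowest in 15d (1686) and highest in F (2899) within P-Rspo3, and lowest in line 6 (1937) and highest in line 5 (3623) within WT. In Apc the orders differed, since line 1 was lowest in 14 members and had the highest marker sum (171), and line 5 was highest in 18 members.

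Markers of cell type moved with the Apc result as a whole. All 8 enterocyte markers were called lower in Apc against WT, and they summed to 137 to 171 FPKM per library, against 1937 to 3623 in WT and 1686 to 2899 in P-Rspo3. Lct was under 0.1 FPKM in every Apc library. Paneth cell markers were called lower in 4 of 5 and higher in 1 (542 to 1525 FPKM against 5548 to 8809 in WT), goblet cell markers in 3 of 4 and enteroendocrine and tuft markers in 4 of 5. Of the stem cell markers, Lgr5, Ascl2 and Smoc2 were called higher and Olfm4 lower. The part of these markers in the fall of the oxidation genes was not tested. In bulk RNA, fewer cells of a type and less RNA per cell cannot be told apart.

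The other genes of the pathway were counted by list, 81 in all, of which 80 could be tested in Apc against WT. There, 34 were called lower and 2 higher, and the median log2 change was -0.84. For peroxisomal oxidation and transport, 14 of 19 tested were called lower and none higher. Ephx2, the soluble epoxide hydrolase, changed by -7.18 and went from 189 ± 66.9 to 1.30 ± 0.650 CPM. Eci3, a peroxisomal enoyl-CoA isomerase, had 77 to 253 counts in each WT library and 0 to 1 in each Apc library. Of 15 peroxins, 2 were called lower, near the 14.1% of all genes, but most had a smaller fall. The 2 called were Pex5 (-1.15), the import receptor for matrix enzymes, and Pex16 (-1.67), which acts in membrane assembly. On the adjusted p alone 13 peroxins were lower, beside 29.0% of all genes, and 1 was higher. In 12 every Apc library lay below every WT library, beside 25.0% of all genes, and the median log2 change was -0.41.

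Among 11 genes of activation, transport and control of CPT1, 5 were called lower, led by the fatty acid transport proteins Slc27a2 (-3.04) and Slc27a4 (-2.34), and 2 higher. These were Cpt1c (3.62, 0.422 ± 0.204 CPM in WT and 5.31 ± 3.47 in Apc), a CPT1 paralog known mainly from neurons, and Acsl4 (1.39), an acyl-CoA synthetase that prefers arachidonate. Of 11 other mitochondrial genes of acyl-CoA oxidation, 2 were called lower and none higher, near the 14.1% of all genes called lower. The 2 were Acad11 (-2.20) and Pccb (-1.78), a subunit of propionyl-CoA carboxylase. On the adjusted p alone 5 of the 11 were lower, beside 29.0% of all genes, and 1 was higher, and the median log2 change of this list was -0.23. Of 7 other ketone body genes 3 were called lower. For 1 of these, Bdh2, the 2 measures disagreed on the level. It had only 1 to 6 counts in each WT library and 0 in each Apc library, mostly at or under the 3 counts taken as the limit of detection. Its FPKM was 0.846 to 2.99 in WT and at most 0.0319 in Apc. The reason for this gap was not tested, and the call, which rests on the counts, carries little weight as to size.

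Of 17 other regulators and PPAR targets, 8 were called lower and none higher. Ppara, the receptor itself, held 50.1 ± 8.27 CPM in WT (SD, n = 5), 1.06 ± 0.554 in Apc and 45.8 ± 11.2 in P-Rspo3 (n = 4 each), a log2 change of -5.58 ± 0.29 in Apc against WT (edgeR adjusted p = 9.94e-08). Creb3l3, a membrane-bound transcription factor known for fasting genes of liver and gut, changed by -9.12, from 283 ± 84.7 to 0.507 ± 0.323 CPM. In P-Rspo3 against WT none of the 78 other pathway genes tested was called, with 9 at an unadjusted p under 0.05 (13.5% of all genes) and none called by DESeq2 (1.43% of all genes).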

How the data were processed

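Per the sample labels and the study's methods, polyA RNA of intestinal organoids was sequenced, and STAR was the authors' aligner, with GRCm38 as the genome. The authors deposited whole-number counts per gene from HTSeq 0.6.0, not normalized, and FPKM values per gene from Cufflinks 2.2.1. The annotation release, the strand setting and the treatment of reads that match several genes are not given in the sources used here, which leaves genes that overlap or have a near-identical copy uncertain. Of 43629 genes with counts, 43437 also had FPKM. No batch is named, and no pair of libraries within a group was alike to within counting noise (the lowest chi-square per gene was 20.5). Where nothing says that cultures came from separate animals, p-values measure the spread between these libraries.

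Groups came from the genotype labels. For 2 further libraries the title and the genotype label conflict, and they entered alternatives and single values only. Counts were tested on all genes with edgeR 4.0.16 in R 4.3.3 (TMM scaling, glmQLFit and glmQLFTest at defaults), in a separate fit for each pair of groups, over genes whose FPKM reached 0.1 in a number of libraries no smaller than the smaller group. A call required an adjusted p (Benjamini-Hochberg) below 0.05 together with a log2 fold change of more than 1 in size. SE is the absolute log2 fold change over the root of F, and intervals use the test's degrees of freedom. CPM shown per library use TMM scaling over all 15 libraries. The steps were tested on simulated data. DESeq2 1.42.0, limma 3.58.1 on log2(FPKM + 1) and log2(FPKM + 0.1), other filters and scaling, other sample sets and leaving out each library were alternatives. The newer form of the quasi-likelihood test was added after results were known. Apc and flox lines of the same number are the same lines, so their numbers pair them, and same-numbered deviations from the group means correlated at a median of 0.0953 (0.0158 to 0.200 over 4 pairs), against -0.0306 over 12 other pairs.

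The members, lists and tests were chosen with earlier results of these data known, so no list is independent evidence. Named genes were all 33 members, with every library given for the 12 largest called changes in Apc and for Cpt1a, Ppargc1a, Pdk4 and Angptl4; of other pathway genes, Ppara and in each list up to 2 called genes of the largest change in each direction, and some genes that the rule names are not reported here. Coordinates and transcripts are those of GENCODE M21, and promoters those of RefSeq GRCm38.p6.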

Additional observations from a re-analysis of the deposited data

Results flagged for a closer look

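In 4 of the 99 sets formed by 33 members in 3 groups, 1 library stood far from the others of its group by Dixon's ratio at the 95% level, and chance alone gives about 1 in 20 such sets. Eci2 in WT replicate 6 was 53.9 CPM, below 71.2 to 77.9 in the other WT libraries. Etfa in Apc replicate 6 was 124 CPM, below 137 to 139. Cat in WT replicate NAIVE was 855 CPM, above 522 to 590, and this library is the only one in WT from the transgenic animals. Pdk4 in P-Rspo3 replicate M was 0.883 CPM, above 0 to 0.0618, from 27 counts against 0 to 2.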

How the results depend on the processing

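The count of members called lower was 23 in Apc versus WT and 22 in Apc versus P-Rspo3, the count called higher was 1 in each, and P-Rspo3 versus WT had 0 in either direction. These counts stayed at the same values under DESeq2 size factors, the DESeq2 Wald test, no FPKM filter, filterByExpr, all 3 groups in 1 fit, the conflicting libraries added by genotype and the newer quasi-likelihood test, added after results were seen, and, where they apply, with flox WT lines alone or the dox-naive WT alone. Leaving out 1 library gave 22 to 24 and 21 to 22 lower. In the paired analysis, the fit of Apc versus WT with a replicate block over the 4 lines also called 23 lower and 1 higher and changed no member's call; its largest move was Pdk4, at 3.18. Limma on log2(FPKM + 1) gave 16 lower in both Apc comparisons, and on log2(FPKM + 0.1) 18 and 16. On those scales the median of all genes rose to 0.167 and 0.277 in Apc versus WT and to 0.160 and 0.254 in Apc versus P-Rspo3. With log2(FPKM + 0.1), calls over all genes were 2586 higher and 1731 lower, and 2608 higher and 1653 lower. In P-Rspo3 versus WT the calls over all genes, 1 higher and 0 lower, became 55 and 173 with the DESeq2 Wald test, 11 and 63 with all 3 groups in 1 fit, 2 and 11 with no FPKM filter and 166 and 100 without WT replicate NAIVE; the cause was not tested. Pdk4 in Apc versus WT was 1.18 with limma on log2(FPKM + 1) and 2.58 on log2(FPKM + 0.1).

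Of 1848 recomputed member values, 1819 kept their call, 27 lost it, 2 gained it and none reversed it, with 33 changes of sign in uncalled values of 15 members. In all, 9 members of Apc versus WT and 6 of Apc versus P-Rspo3 changed call somewhere; on the FPKM scales Acadm, Hadha, Etfa and Cpt2 lost theirs in both comparisons, Cpt1a, Acat1 and Etfdh in the first and Acaa1a and Ppargc1a in the second, at the same direction. With 4 or 5 libraries a group, the sparse Pdk4 and Angptl4 are the least precise.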

Other observations

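The libraries with conflicting labels, titled LIPO and NAIVE_F, were kept out of the groups, and their values are given here alone. The mitochondrial members summed to 2188 FPKM in LIPO and 1959 in NAIVE_F, and the peroxisomal members to 558 and 414, a share of 20.3% and 17.5% of both sums. Acaa1b held 92.5 and 34.1 CPM, Ehhadh 237 and 219, Cat 918 and 591, Angptl4 8.61 and 10.8, and Pdk4 0.156 and 0.458.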
